A study of Mus musculus with 6 samples.

Results

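The 10 genes described here, of bicarbonate transport and carbonic acid chemistry, were measured in sorted collecting duct cells of newborn mice that carried or lacked Bdkrb2, the gene of the bradykinin B2 receptor. They were the Slc4 family members Slc4a1, Slc4a2, Slc4a4, Slc4a7 and Slc4a9, the Slc26 family members Slc26a4 and Slc26a7, and the carbonic anhydrases Car2, Car12 and Car15. The members were chosen by gene symbol, so that all 10 of 20887 named genes on the array and all of their 14 probes are reported. The comparison set 3 arrays of Bdkrb2 knockout cells (KO) against 3 arrays of Bdkrb2 wild-type cells (WT). KO pups were Hoxb7cre+ and Bdkrb2f/f with the R26RtdTomato reporter, and WT pups were Hoxb7cre+ and Bdkrb2+/+ with the same reporter, all C57BL/6. The cells were sorted at postnatal day 1 as positive for GFP and dsRED, after gestation on food with 5% sodium, which KO and WT shared. Cre under Hoxb7 acts in cells of ureteric bud origin, and the deletion is limited to them. How many pups were pooled for a sample was not stated in the labels, and the p-values measure only the spread between these samples.

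Acid and base are handled in the collecting duct by intercalated cells. In the acid-secreting type, cytosolic carbonic anhydrase makes protons and bicarbonate from carbon dioxide, a proton pump moves the protons into the urine, and an anion exchanger on the blood side, the Slc4a1 product, lets the bicarbonate out. In the base-secreting type, pendrin, the Slc26a4 product, exchanges bicarbonate for chloride on the urine side, and the Slc4a9 product sits on the blood side. Sodium-coupled members of the Slc4 family carry bicarbonate in many tubule segments and in other cells.

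Each sample was labelled with Cy5 and set on its array against 1 common Cy3 reference, the RNA of WT replicate 1, so that each log2 ratio is that of a sample to this reference. The array of WT replicate 1 set that RNA against itself. Between 49.8% and 52.7% of spots per WT array and between 56.6% and 57.5% per KO array were well above background, and no spot of the 10 genes was saturated. The Bdkrb2 probe was not well above background in any of the 6 samples, with log2 ratios of 0.12, 0.09 and -0.16 in WT replicates 1 to 3 and -0.02, 0.05 and -0.08 in KO replicates 1 to 3, so it gave no check of the genotypes. Markers of the labelled cells were present, with 18 of 18 intercalated and 12 of 13 principal cell markers measured (Scnn1g was not). Markers of other kidney cells were measured too, namely 12 of 12 nephron progenitor, 13 of 14 stroma, 18 of 18 proximal tubule and 12 of 12 endothelium markers. The array of KO replicate 1 stood apart, lying more than 0.3 on the log2 scale (a limit chosen after seeing the data) outside both other KO arrays for 23.5% of the 14755 genes tested, against 3.67% and 5.56% for KO replicates 2 and 3. The array of WT replicate 2 did so against the other WT arrays for 8.70% of all genes and for 7 of the 10 genes described here. Processed signals of KO arrays were scaled brighter than those of WT arrays, so ratios carry the comparison and signals are given as a description.

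Most of the 10 genes were lower in KO. Of the 10, 7 fell, 1 rose (Slc4a7) and 2 did not pass the test (Slc4a4 and Slc26a7), where passing means an adjusted p under 0.05 in a limma fit across 14755 genes. The background was wide, since 35.3% of all genes tested passed, 20.0% as lower and 15.4% as higher in KO. Of all calls 43.5% were higher, against 74.4% when arrays were centred on their median in place of loess, a scaling that moves the median of all genes from -0.02 to 0.24. The median difference, KO minus WT on the log2 scale, was -1.57 over the 10 genes and -0.02 over all genes. KO and WT ratios did not overlap for 8 of the 10, against 52.1% of all genes. A drop of at least 2-fold was passed by 6 of the 10 and by 5.16% of all genes. Of the 14 probes 13 were tested on their own, 8 were lower, 1 was higher and 4 did not pass, where 25.3% of 29811 probes passed. In bulk samples, fewer cells of a type and less RNA per cell cannot be told apart.

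**Figure D1:**
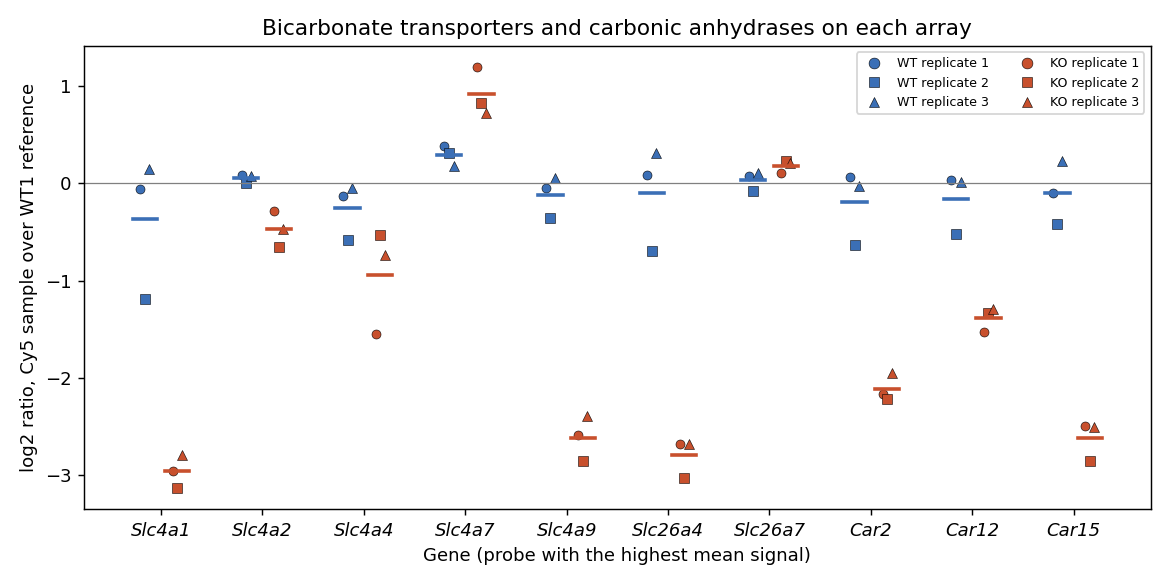
Log2 ratio of each sample to the WT1 reference (vertical axis) for the 10 genes on the 3 WT arrays (blue) and the 3 KO arrays (orange), with bars at the group means. The KO points of Slc4a1, Slc4a9, Slc26a4, Car2, Car12 and Car15 lie far below the WT points, those of Slc4a2 lie slightly below, those of Slc4a7 lie above, and those of Slc4a4 and Slc26a7 overlap or nearly meet the WT points.

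The exchangers that mark the main types of intercalated cell fell together. Slc4a1 encodes anion exchanger 1, which carries bicarbonate to the blood from acid-secreting cells and is also the band 3 protein of red cells. The processed Cy5 signals of its probe A_51_P196972 were 1356, 665 and 1636 in WT replicates 1 to 3 against 293, 235 and 253 in KO replicates 1 to 3. The log2 ratios were -0.06, -1.19 and 0.14 in WT against -2.96, -3.14 and -2.79 in KO. WT replicate 2 was the low WT array, and even so it lay above every KO array. The difference was -2.60 ± 0.31 (moderated standard error, n = 3 and 3 arrays), a 6.04-fold lower level (limma, adjusted p = 0.000706). Without WT replicate 2 the difference was -3.01, and without KO replicate 1 it was -2.60.

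Slc26a4 encodes pendrin, the exchanger on the urine side of base-secreting cells. On probe A_51_P224164, WT replicates 1 to 3 had ratios of 0.08, -0.69 and 0.32, and KO replicates 1 to 3 had -2.69, -3.03 and -2.69. The KO arrays lay close together and well below WT replicate 2, again the lowest WT array. The difference of -2.70 ± 0.25 corresponds to a 6.51-fold lower level (limma, adjusted p = 0.000259), and was the largest estimate among the 10 genes in this fit, although its 95% interval (-3.27 to -2.13) overlapped those of Slc4a1, Slc4a9 and Car15. It was -3.00 without WT replicate 2 and -2.76 without KO replicate 1.

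Slc4a9 encodes the anion exchanger of the blood side in base-secreting cells. Its brighter probe, A_55_P2056488, had processed Cy5 signals of 4433, 3582 and 4335 in WT and 1405, 1179 and 1504 in KO, and gave ratios of -0.05, -0.36 and 0.05 in WT and -2.59, -2.86 and -2.39 in KO replicates 1 to 3, without overlap. The second probe, A_51_P140347, gave -0.12, -0.39 and -0.10 in WT and -2.17, -2.25 and -1.91 in KO, so both probes set the groups apart. The second probe was weaker, with processed Cy5 signals of 969, 908 and 1044 in WT and 422, 429 and 496 in KO. The differences were -2.50 ± 0.16 for the first probe (5.65-fold lower, limma, adjusted p = 0.000182) and -1.91 ± 0.13 for the second (3.75-fold lower, limma across probes, adjusted p = 0.000347). Probes of a gene share a target and are not replicates.

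The carbonic anhydrases followed, in unequal steps. Car15, a membrane-bound enzyme of the mouse kidney, had processed Cy5 signals of 12970, 11070 and 15800 in WT and 5186, 3862 and 4003 in KO. Its probe, A_55_P2154416, had ratios of -0.10, -0.42 and 0.23 in WT and -2.50, -2.86 and -2.50 in KO replicates 1 to 3. The groups were separated by about the same distance as those of Slc4a9. The difference was -2.52 ± 0.18 (5.75-fold lower, limma, adjusted p = 0.000182). Car2, the cytosolic enzyme that supplies protons and bicarbonate in intercalated cells and also abounds in red cells, had ratios of 0.07, -0.63 and -0.02 in WT and -2.17, -2.22 and -1.95 in KO on probe A_51_P455647. The processed Cy5 signals of that probe were 8847, 5643 and 7445 in WT against 3709, 3570 and 3745 in KO. All KO arrays lay below all WT arrays. The difference was -1.92 ± 0.19, a 3.78-fold lower level (limma, adjusted p = 0.000311).

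Car12 encodes an anhydrase that spans the membrane with its active site outside the cell. Its processed Cy5 signals on probe A_55_P2019312 were 12551, 7922 and 12478 in WT against 8070, 9501 and 7733 in KO, overlapping before the scaling of arrays was taken into account. The log2 ratios were 0.03, -0.52 and 0.02 in WT against -1.53, -1.34 and -1.30 in KO replicates 1 to 3. The groups did not overlap, and the step was the smallest among the 3 anhydrases, at -1.23 ± 0.16 (2.34-fold lower, limma, adjusted p = 0.00108).

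Slc4a2 encodes anion exchanger 2, found on the blood side of many epithelia. On probe A_55_P2006018 the ratios were 0.09, 0.003 and 0.08 in WT against -0.29, -0.66 and -0.47 in KO replicates 1 to 3. The groups did not overlap, with KO replicate 1 nearest to WT. The difference of -0.53 ± 0.12 is a 1.44-fold lower level (limma, adjusted p = 0.0104). It did not pass under median centring (-0.24, adjusted p = 0.458), nor with the row of the slide as a block (-0.56, adjusted p = 0.0873).

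Slc4a7, an electroneutral sodium bicarbonate cotransporter, was the single gene of the 10 that rose. Its brighter probe, A_55_P2026818, had processed Cy5 signals of 520, 553 and 453 in WT and 1926, 1552 and 1104 in KO, and gave ratios of 0.39, 0.31 and 0.17 in WT and 1.20, 0.83 and 0.72 in KO replicates 1 to 3. All KO arrays lay above all WT arrays, KO replicate 1 highest. The difference was 0.63 ± 0.14 (1.54-fold higher, limma, adjusted p = 0.0108), and it missed the threshold without WT replicate 3 (0.57, adjusted p = 0.0519), with the Cy5 channel alone (0.57, adjusted p = 0.0535) and with the row block (0.53, adjusted p = 0.145).

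The second Slc4a7 probe, A_52_P108502, did not show the rise as a ratio. Its ratios were 0.05, 0.17 and 0.10 in WT against -0.85, 0.41 and 0.04 in KO replicates 1 to 3, a difference of -0.24 ± 0.28 (limma fit across probes, adjusted p = 0.567; 95% interval -0.89 to 0.41). Its processed Cy5 signals were 66.7, 84.7 and 76.9 in WT against 209.9, 211.5 and 181.3 in KO. The low ratio of KO replicate 1 went with a high reference signal on that spot. The processed Cy3 signal, from the same WT1 RNA on every array, was 425 on KO replicate 1 against 141 and 144 on KO replicates 2 and 3. In the Cy5 channel alone, scaled to the 75th percentile of each array, the log2 signals were -2.20, -1.87 and -1.88 in WT against -1.52, -1.56 and -1.59 in KO. On that scale the KO arrays lay above the WT arrays, with a difference of 0.42 (adjusted p = 0.0773). With the mean of both probes as the value of the gene, Slc4a7 gave 0.19 (adjusted p = 0.267).

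Slc4a4 encodes the electrogenic sodium bicarbonate cotransporter, known from the blood side of the proximal tubule. Its 2 brighter probes, A_55_P1967776 and A_55_P1959228, behaved alike. The first gave -0.13, -0.59 and -0.05 in WT and -1.55, -0.54 and -0.74 in KO replicates 1 to 3, and the other gave 0.09, -0.53 and -0.18 in WT and -1.61, -0.61 and -0.59 in KO. On both, KO replicate 1 lay far below the other arrays, and KO replicates 2 and 3 lay near WT replicate 2, overlapping it on the first probe only. The processed Cy5 signals of the first probe were 404, 254 and 351 in WT against 167, 504 and 442 in KO, and those of the other were 359, 236 and 299.6 in WT against 166, 443 and 363 in KO. The difference of -0.69 ± 0.27 did not pass (limma, adjusted p = 0.0787; 95% interval -1.30 to -0.07), and without KO replicate 1 it was -0.38 (adjusted p = 0.108). Proximal tubule markers are given beside it. Of 18, 4 were lower, near the share of 20.0% over all genes, and 0 were higher (0 also at an unadjusted p under 0.05 in limma). That count rested on single arrays, as it was 12 without WT replicate 2, 1 without WT replicate 3, 2 without KO replicate 2, 6 without KO replicate 1, 8 with array weights and 2 with the row block. The summed Cy5 signals were 316, 167 and 289 in WT replicates 1 to 3 and 189, 162 and 154 in KO, in units of the array's 75th percentile, so that WT replicate 2 alone lay among the KO arrays. None of these markers was below background on all arrays, and their part in the Slc4a4 values was not tested.

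Slc26a7, an anion exchanger of the blood side in medullary intercalated cells, was close to background. The Cy5 signal of its spot was 1.29 to 2.25 times the local background, which counted as well above background in all KO samples and in 2 of 3 WT samples. The processed Cy5 signals were 27.2, 9.05 and 19.3 in WT against 60.3, 67.0 and 80.2 in KO. The ratios were 0.07, -0.08 and 0.11 in WT against 0.11, 0.23 and 0.21 in KO replicates 1 to 3, so the groups overlapped narrowly. The difference of 0.15 ± 0.10 did not pass (limma, adjusted p = 0.288; 95% interval -0.08 to 0.38). The offset added to the signals shrinks ratios of weak probes, and the Agilent ratios gave 0.84 (adjusted p = 0.2) and Cy5 alone 1.05 (adjusted p = 0.0986), neither of which passed.

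The signals behind the ratios differed in scale between arrays. The processed Cy5 signal of Slc26a4 was 3410, 1860 and 3734 in WT and 880, 699 and 841 in KO replicates 1 to 3. The processed Cy3 signal of the same probe, from the same reference RNA, was 3056, 3127 and 2843 on WT arrays and 5944, 6145 and 5393 on KO arrays. KO arrays were therefore scaled brighter, and an unscaled Cy5 value understates a drop. Slc4a2 shows this, with processed Cy5 signals of 1270, 1535 and 1380 in WT and 2225, 1449 and 1635 in KO, although its ratios were lower in KO. After scaling by the 75th percentile the reference channel was steady for most of the probes. Its log2 signal for Slc26a4 spanned 0.05 over the 6 arrays and that for Slc4a1 0.12, while it spanned 0.35 for Slc4a2 and 0.51 for Slc26a7. The second Slc4a7 probe, at 1.80, and the weakest Slc4a4 probe, at 1.08, were the probes with the widest spans.

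**Figure D2:**
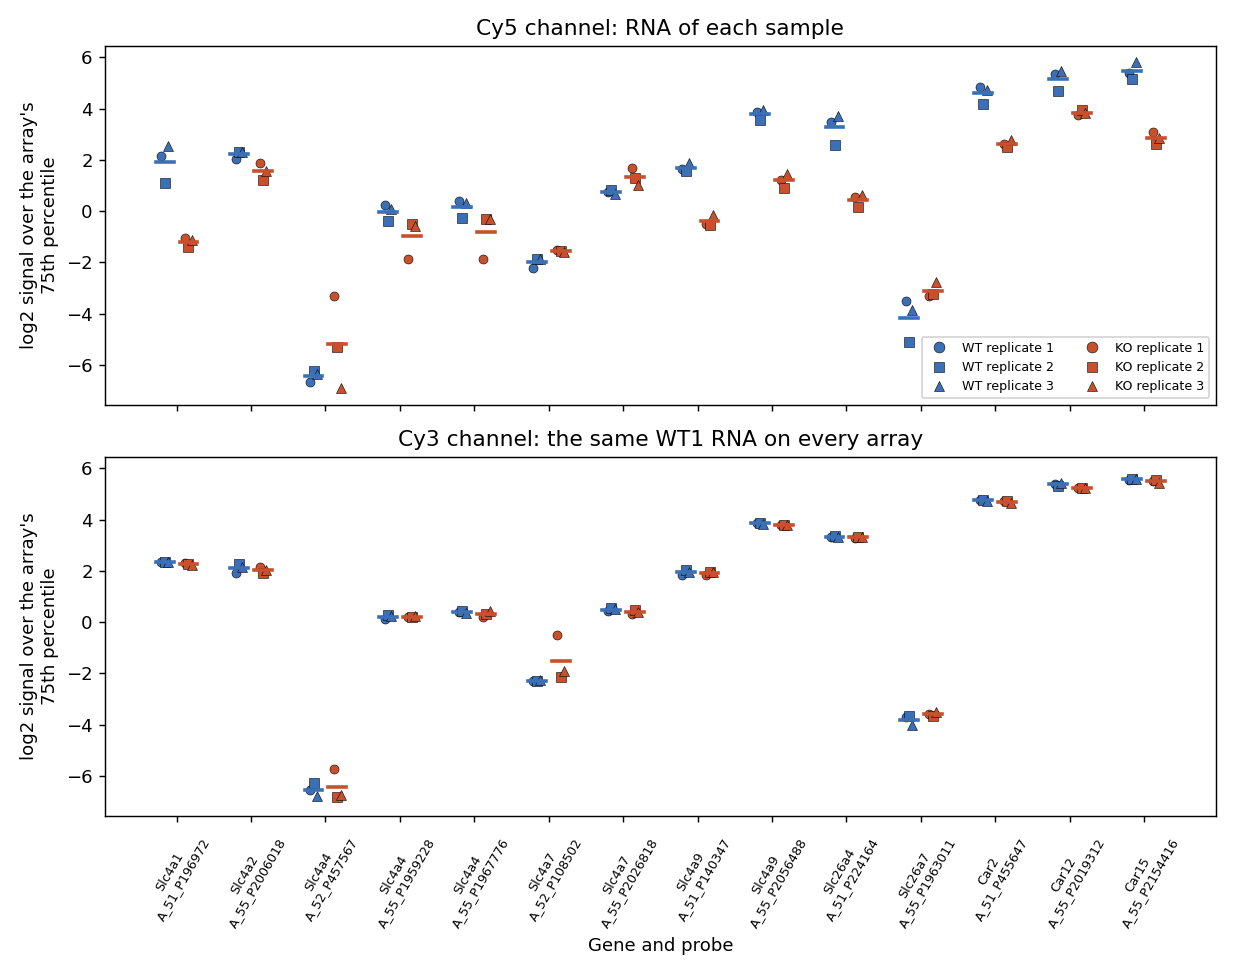
Log2 signal over the 75th percentile of the array for the 14 probes of the 10 genes, in the Cy5 channel (top, sample RNA) and the Cy3 channel (bottom, WT1 reference RNA), for 3 WT (blue) and 3 KO (orange) arrays with bars at group means. The groups part in Cy5 for most probes and coincide in Cy3, except that the spot of KO replicate 1 for Slc4a7 probe A_52_P108502, and to a lesser degree for the weakest Slc4a4 probe, is raised in Cy3.

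How far the genes fell relative to one another was described within arrays, by the ratio of one gene minus that of another. The 5 pairs were chosen after their values were seen, so no test is given. Slc4a1 minus Slc26a4 was -0.27 ± 0.20 (SD, n = 3) in WT and -0.16 ± 0.10 in KO, and Slc26a4 minus Slc4a9 was 0.02 ± 0.31 in WT and -0.18 ± 0.10 in KO. In both pairs, which join exchangers of intercalated cells, the KO and WT values overlapped. Slc4a1 minus Slc4a2, the exchangers AE1 and AE2, was -0.43 ± 0.67 in WT and -2.49 ± 0.17 in KO. Car2 minus Car12 was -0.04 ± 0.07 in WT and -0.73 ± 0.14 in KO, and Car15 minus Car2 was 0.10 ± 0.23 in WT and -0.50 ± 0.16 in KO. For these 3 pairs every KO value lay below every WT value.

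The drops of 6 genes passed under each alternative that was run. Slc4a1, Slc4a9, Slc26a4, Car2, Car12 and Car15 passed the test in all 16, with adjusted p-values up to 0.0106 (Car12, row block). The differences ranged from -3.12 to -2.34 for Slc4a1, from -3.00 to -2.46 for Slc26a4, from -2.62 to -2.20 for Slc4a9, from -2.68 to -2.24 for Car15, from -2.18 to -1.63 for Car2 and from -1.42 to -0.90 for Car12. Row 1 of the slide held all KO arrays and WT replicate 1, and row 2 held WT replicates 2 and 3. The row block, in which the difference rests on KO against WT replicate 1, takes its spread from the other arrays as well, since WT replicate 1 is a lone sample set against itself and is assumed to vary like the others. It gave differences of -2.90, -2.89, -2.57, -2.52, -2.18 and -1.42 for Slc4a1, Slc26a4, Slc4a9, Car15, Car2 and Car12.

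**Figure D3:**
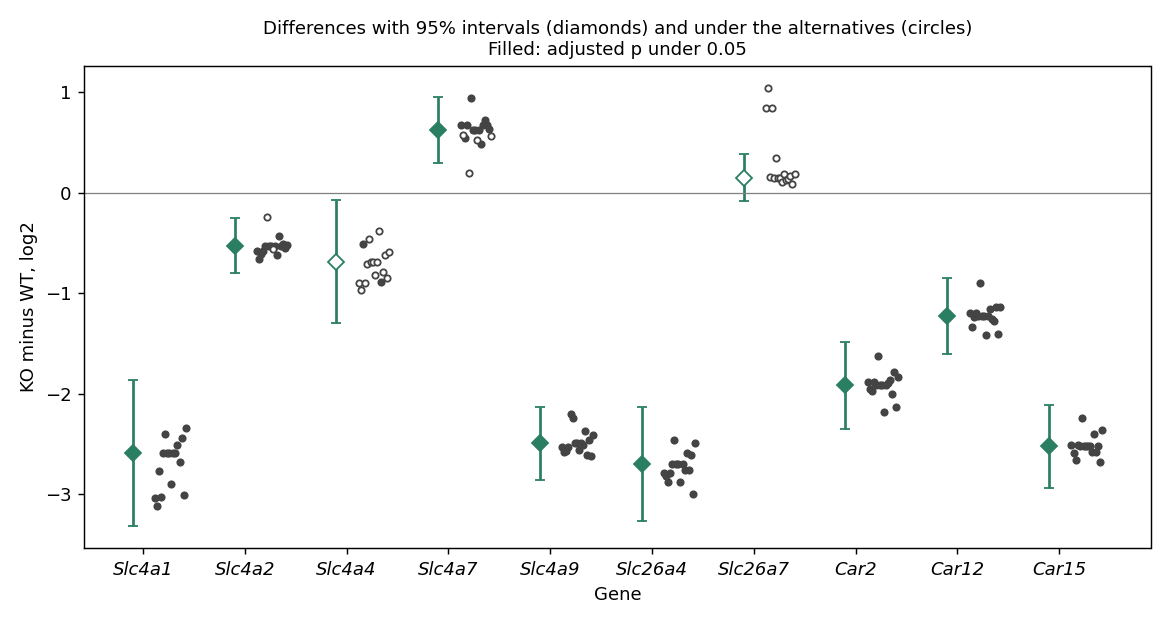
KO minus WT on the log2 scale for each of the 10 genes, with the reported value and its 95% interval as a diamond and the value under each alternative as a circle, filled where the adjusted p was under 0.05. Slc4a1, Slc4a9, Slc26a4, Car2, Car12 and Car15 have only filled symbols, while Slc4a2, Slc4a4 and Slc4a7 have both kinds and Slc26a7 has only open ones.

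Promoter sequences of 6 of the 10 genes were read from a set of promoters of build GRCm38.p6, and the promoter of Slc4a9 was not used here. Those of Slc26a4, Car12, Car15 and Slc4a7 are shown, because each of these genes passed the test and has 1 listed start, and because the first 3 fell together while Slc4a7 rose. Each is the 250 bases before the start, 5′ to 3′ on the strand of the gene, from chr12:31559985-31560234 (minus strand), chr9:66713436-66713685 (plus), chr16:17838187-17838436 (minus) and chr14:14718534-14718783 (plus). Capitals mark matches to the forkhead core TGTTTA, the family of Foxi1, a factor of intercalated cells, or to the TATA box TATAAA, each searched on both strands.
Slc26a4: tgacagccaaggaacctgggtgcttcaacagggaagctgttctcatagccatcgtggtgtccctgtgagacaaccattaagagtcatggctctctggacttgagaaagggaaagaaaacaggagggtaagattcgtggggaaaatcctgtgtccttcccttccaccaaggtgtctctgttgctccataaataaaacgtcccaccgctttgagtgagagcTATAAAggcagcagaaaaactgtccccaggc
Car12: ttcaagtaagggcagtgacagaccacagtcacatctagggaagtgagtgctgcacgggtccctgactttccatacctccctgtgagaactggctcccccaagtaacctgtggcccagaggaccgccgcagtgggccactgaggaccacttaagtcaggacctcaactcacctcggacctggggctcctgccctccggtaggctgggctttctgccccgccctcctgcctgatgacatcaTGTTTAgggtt
Car15: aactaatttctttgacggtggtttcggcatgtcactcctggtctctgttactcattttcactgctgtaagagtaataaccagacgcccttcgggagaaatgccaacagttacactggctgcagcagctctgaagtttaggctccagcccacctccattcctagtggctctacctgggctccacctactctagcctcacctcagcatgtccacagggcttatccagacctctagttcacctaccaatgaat
Slc4a7: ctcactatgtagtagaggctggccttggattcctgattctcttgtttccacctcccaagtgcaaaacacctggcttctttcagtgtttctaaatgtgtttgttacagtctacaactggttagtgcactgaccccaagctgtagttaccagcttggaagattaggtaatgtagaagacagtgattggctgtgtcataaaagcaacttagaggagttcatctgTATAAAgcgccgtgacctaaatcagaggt
Slc26a4 and Slc4a7, which moved in opposite directions, both held a TATA box, at 31 to 26 and 29 to 24 bases before the start. Car12 held a forkhead core at 11 to 6 bases before the start. No match to these letters was in the window of Car15. Of 32851 promoters of the same length, 12.0% held the forkhead core and 12.4% the TATA box, and a match is a description of the sequence only.

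The rest of the Slc4 family had 1 further large drop. Of its 5 other members 4 were tested, 2 fell and 0 rose (limma, with 3 and 0 at an unadjusted p under 0.05), where 20.0% of all genes fell and 15.4% rose. Their median was -0.49 (-0.24 under median centring). Slc4a11, a transporter known for its role in the cornea and also present in kidney, had ratios of 0.05, -0.62 and -0.07 in WT and -2.28, -2.43 and -2.39 in KO replicates 1 to 3. That is a difference of -2.15 ± 0.17 (4.45-fold lower, limma, adjusted p = 0.00021), between the values of Car2 (-1.92) and Slc4a9 (-2.50). The anion exchanger Slc4a3 fell by 0.65 on the log2 scale (adjusted p = 0.00516), and did not pass under median centring (-0.36, adjusted p = 0.244) or with the row block (-0.60, adjusted p = 0.0828). Slc4a5 and Slc4a8 gave -0.32 ± 0.13 and -0.16 ± 0.11 and did not pass. With Cy5 alone Slc4a5 was -0.53 and passed (adjusted p = 0.0455), and under median centring Slc4a8 turned to 0.08. Slc4a10 was not well above background.

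In the Slc26 family 5 of the 8 other members on the array were tested, 1 fell and 0 rose (limma; 2 and 0 at an unadjusted p under 0.05), a share no larger than the 20.0% of all genes that were lower. Their median was -0.27, and -0.11 under median centring and -0.44 with the Agilent ratios. Slc26a10 fell, with a difference of -1.19 ± 0.10 (adjusted p = 0.000234) and KO ratios of -1.14, -1.27 and -1.02 against WT ratios of 0.05, 0.05 and 0.06. The sulphate transporters Slc26a2 and Slc26a1 gave -0.27 ± 0.11 and -0.38 ± 0.21 and did not pass. Slc26a2 passed with the Agilent ratios (-0.51, adjusted p = 0.0121), from the authors' series matrix (-0.51, adjusted p = 0.0121) and in the Cy5 channel alone (-0.50, adjusted p = 0.0405).

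Among 13 other carbonic anhydrases 9 were tested, 2 fell and 0 rose (limma; 2 and 0 at an unadjusted p under 0.05), a share near the 20.0% of all genes that were lower. Their median of -0.07 was near the -0.02 of all genes, and under median centring it was 0.04 against 0.24. The cytosolic Car7 and the mitochondrial Car5b differed by -0.93 ± 0.19 and -0.77 ± 0.16 (adjusted p = 0.00618 and 0.00832), and neither passed with the row block (-0.81 and -0.61, adjusted p = 0.0960 and 0.132). Car14, a membrane-bound form of the proximal tubule, and Car13 gave 0.51 ± 0.22 and -0.19 ± 0.11 and did not pass. Car14 passed under median centring (0.84, adjusted p = 0.0161) and with Cy5 alone (0.87, adjusted p = 0.0438). It also passed with the replicate number as a block (0.51, adjusted p = 0.0123).

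Partners and regulators of acid and base transport moved mostly downward. Of 21 listed, 18 were tested, 12 fell and 1 rose, where 20.0% of all genes fell and 15.4% rose. Under median centring 9 fell. The median was -0.97 over the 18, and -0.57 over all 21 with no filter on background. The ammonia transporters Rhbg and Rhcg differed by -2.28 ± 0.25 and -1.99 ± 0.18, and the potassium channels Kcnj10 and Kcnj16, which join in the blood-side membrane of distal tubule cells, by -2.74 ± 0.21 and -2.18 ± 0.23. Galectin 3 (Lgals3), which binds the matrix protein hensin in intercalated cell maturation, differed by -2.27 ± 0.16. Gpr65, a proton-sensing receptor known from leukocytes, was the member that rose (0.74 ± 0.17, adjusted p = 0.0127). It counted as well above background in 1 of 3 WT samples, and it did not pass without WT replicate 3 (0.68, adjusted p = 0.0571) or with the row block (0.63, adjusted p = 0.154). Ptk2b and Ahcyl1 gave -0.46 ± 0.16 and 0.09 ± 0.12 and did not pass. Ptk2b passed with Cy5 alone (-0.63, adjusted p = 0.0465), with array weights (-0.51, adjusted p = 0.0273), without KO replicate 1 (-0.53, adjusted p = 0.0388) and without KO replicate 3 (-0.57, adjusted p = 0.0414), and Ahcyl1 turned to -0.09 with the row block. The proton sensor Adcy10, the exchanger Slc9a3 and hensin (Dmbt1) were not well above background.

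**Figure D4:**
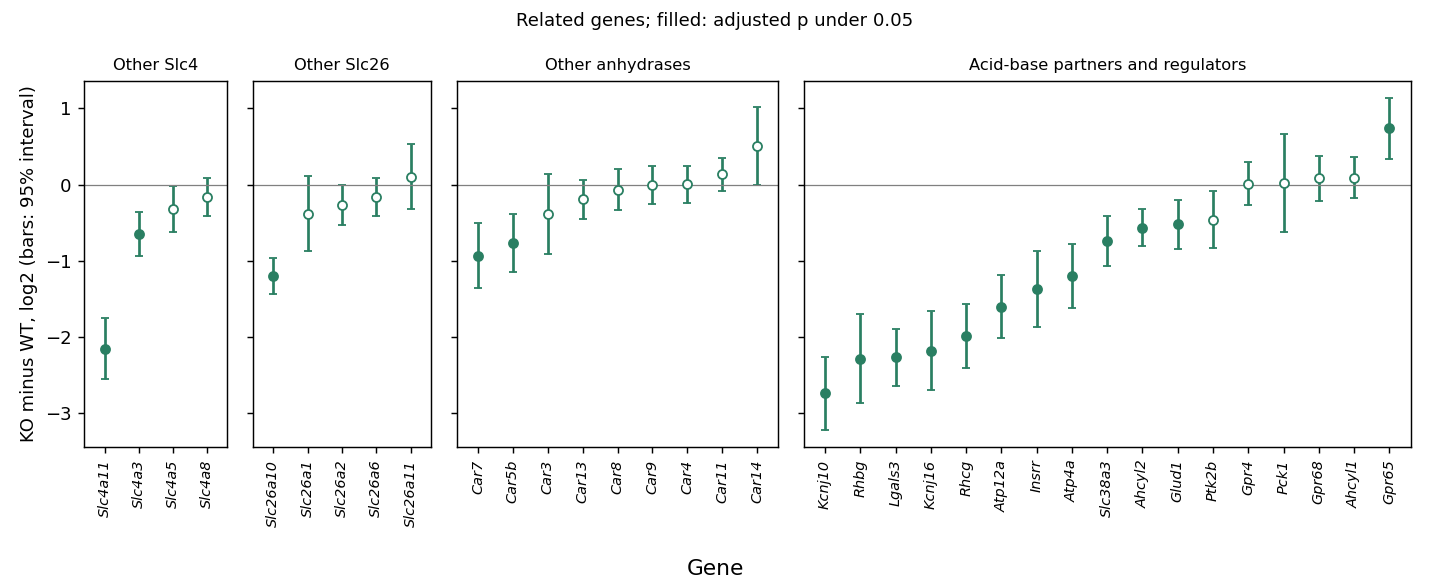
KO minus WT on the log2 scale with 95% intervals for the tested genes of 4 related lists (1 partner is left out), filled where the adjusted p was under 0.05. Slc4a11, Slc26a10 and most acid-base partners lie well below 0, while most other Slc26 members and carbonic anhydrases lie near 0.

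Genes with the most similar profile were found by the root mean square difference of the 6 log2 ratios, as a description over 6 arrays. The nearest to Slc4a1 were Klk1b24, Defb1 and Slc12a3, at 0.10, 0.10 and 0.13. The nearest to Slc4a9 were Mal, Car15 and Bsnd, at 0.09, 0.10 and 0.15, and those to Slc26a4 were Mfsd4a, Fabp3 and Slco4a1, at 0.10, 0.15 and 0.15.

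Markers of several cell types moved in the same arrays, where 20.0% of all genes tested fell and 15.4% rose. All 18 intercalated cell markers fell (median -2.16, with the summed Cy5 signal at 304 to 487 in WT and 56.2 to 73.1 in KO, in units of the array's 75th percentile), among them Dmrt2 (-2.43 ± 0.17) and Bsnd (-2.36 ± 0.18). This list shares Rhbg and Rhcg with the list of partners. Of 12 principal cell markers tested 11 fell (median -1.78, summed signal 125 to 136 in WT and 28.2 to 39.5 in KO), and so did all 12 markers of the loop of Henle and distal tubule (median -2.10, 198 to 343 in WT and 44.5 to 57.1 in KO). Of 12 endothelium markers 10 fell (median -1.002, 115 to 131 in WT and 58.2 to 61.8 in KO), and the proximal tubule list had a median of -0.38, which was -0.67 without WT replicate 2, -0.19 without WT replicate 1, -0.07 under median centring and -0.83 with the row block. Of 13 stroma markers tested 10 rose (median 1.86, 48.5 to 95.9 in WT and 176 to 223 in KO), and of 12 nephron progenitor markers 11 rose (median 2.28, 46.2 to 62.8 in WT and 146 to 226 in KO). Under median centring 7 of the 12 endothelium markers fell (median -0.67). The counts of the intercalated, principal, loop and distal tubule, stroma and nephron progenitor lists were unchanged by it. With the row block the median was -0.91 for endothelium, -1.72 for principal cell, 1.12 for stroma and 1.84 for nephron progenitor markers. It was -2.30 for intercalated cell and -2.31 for loop and distal tubule markers. Scnn1g and, among stroma markers, Tbx18 were not tested. How far these shifts account for the values of the 10 genes was not tested.

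Slc4a1 and Car2 are also genes of red cells, so erythroid markers are given beside them. Of 12 tested, 7 fell and 2 rose (Ermap and Epor), with a median of -1.23, where 20.0% of all genes fell and 15.4% rose. The share that rose was thus near that of all genes. With no filter on background, the median over all 21 erythroid markers on the array was -0.02. Ermap (0.46 ± 0.11) and Epor (0.51 ± 0.14) did not pass with the row block or without WT replicate 3. Ermap also did not pass with Cy5 alone (0.27, adjusted p = 0.514). Epor also did not pass without KO replicate 3 (0.47, adjusted p = 0.0663) or without WT replicate 1 (0.42, adjusted p = 0.0819). The 7 that fell were the globins Hbb-bs, Hbb-bt, Hbb-b2, Hba-a1 and Hba-a2, with Alas2 and Kel. Kel (-0.58 ± 0.15) did not pass under median centring (-0.47, limma, adjusted p = 0.119) or without WT replicate 2 or 3. Sptb gave 0.36 ± 0.13 and did not pass. It passed with Cy5 alone (1.86, limma, adjusted p = 0.0220) and with array weights (0.35, adjusted p = 0.0336). Hbb-bs, a beta globin, had ratios of -0.04, -1.54 and 0.24 in WT and -3.35, -3.47 and -3.04 in KO replicates 1 to 3, and Alas2, of haem synthesis, -0.11, -1.10 and 0.19 in WT and -2.20, -2.33 and -2.39 in KO. In both, as in Slc4a1, WT replicate 2 was the lowest WT array. The same held for all 7 genes described here that fell. It also held for Slc12a3, a distal tubule marker with a profile near that of Slc4a1. Its ratios were 0.001, -1.18 and -0.09 in WT replicates 1 to 3. Slc12a3 was found by its likeness to Slc4a1 over the same 6 ratios, so its low WT replicate 2 followed from that choice. The medians of the loop and distal tubule list were 0.06, -0.63 and 0.14 in WT replicates 1 to 3. Those of the principal cell list were -0.09, -0.09 and 0.04. The source of the low WT replicate 2 was not tested. Globin probes may bind the transcripts of close paralogs. The summed Cy5 signal of the list was 528, 273 and 672 times the array's 75th percentile in WT and 126, 94.0 and 95.6 times in KO. Of the 21 erythroid markers on the array, 7 were not well above background in any sample, among them Epb42, Rhag, Klf1 and Gata1. The part of red cell RNA in the Slc4a1 and Car2 values was not tested.

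**Figure D5:**
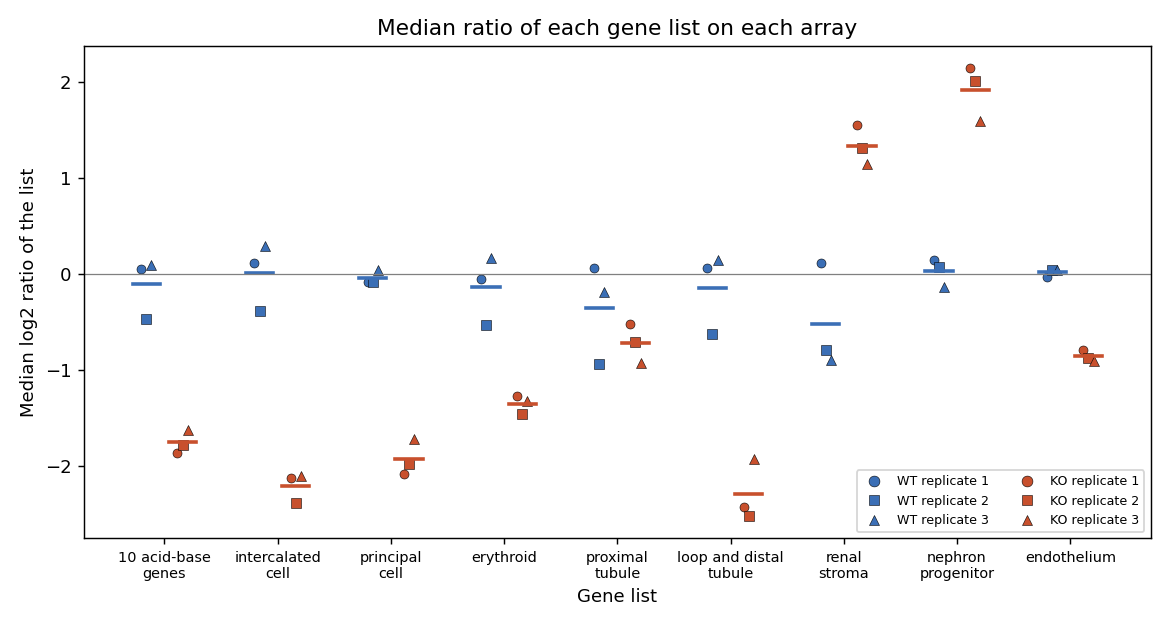
Median log2 ratio to the WT1 reference on each of the 3 WT (blue) and 3 KO (orange) arrays for the 10 acid-base genes and 8 lists of cell type markers, with bars at group means. The 10 genes, intercalated, principal, erythroid, loop and distal tubule and endothelium lists are lower in KO, the stroma and nephron progenitor lists are higher, and the values of the proximal tubule list overlap.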

How the data were processed

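Agilent arrays with 2 colours were used, 3 KO and 3 WT, with labelled cDNA made from 0.5 µg of RNA per reaction, per the labels' protocols. The deposited scanner files hold spot intensities and the background around each spot in both colours. Per the file headers they come from Agilent Feature Extraction 10.7.3.1; the submitters' processing notes give 6.1. The program also gave processed intensities and log10 ratios of Cy5 over Cy3, with background taken off and dyes balanced, per the file headers. The series matrix the authors deposited has log10 ratios within 0.00499 of these.

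Median intensities were corrected by normexp (offset 50), turned to log2 ratios and normalised within arrays by loess, with controls at weight 0. Outlier spots (196 to 403 per array) were left out, repeat spots were averaged, and 117 probes lacking a value on some array were dropped. Of 55681 probes, 27509 were named by matching accessions to a RefSeq table (GRCm38.p6, names only). Probes with Cy5 well above background on at least 3 of 6 arrays were kept, and a gene was represented by its brightest probe. The limma package (3.58.1, R 4.3.3) tested KO against WT, 2-sided, with Benjamini-Hochberg adjustment over 14755 genes, and again over 29811 probes. The fit was tested on simulated data for KO against WT on 14755 genes. In these, 50, 100 and 50 genes were changed by 0.5, 1 and 2 (log2), of which it recovered 18%, 70% and 94%. Far fewer genes were changed there than the 35.3% that passed in the data, so these rates need not apply to the data. The number of arrays limits the precision.

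The members and gene lists were chosen with earlier results of these data known. The rule named all 10 members and their probes, up to 6 passing and 2 other genes per related list by smallest p, up to 3 markers per cell type list, and the 3 nearest profiles of Slc4a1, Slc4a9 and Slc26a4. Gpr65, Ermap, Epor, Kel, Sptb, the further globins and genes below background were named after their values were seen. Values of some listed genes are not reported here. Replicate numbers share no stated origin. Alternatives were other normalisations, filters, probe rules, weights, blocks and single arrays left out.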

Additional observations from a re-analysis of the deposited data

Results flagged for a closer look

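The weakest Slc4a4 probe (A_52_P457567), which was left out of every test because it was well above background on 1 of 6 arrays, gave a processed Cy5 signal of 60.5 on the array of KO replicate 1. Its signals were 3.05, 4.17 and 3.43 in WT replicates 1 to 3 and 15.9 and 4.57 in KO replicates 2 and 3, none of them well above background. Its processed Cy3 signal, from the WT1 reference, was also highest on the array of KO replicate 1. It was 11.5 there, against 3.25, 3.94 and 2.55 on the WT arrays and 5.55 and 5.11 on KO replicates 2 and 3. The log2 ratio of this probe on KO replicate 1 was 0.15, and the Agilent ratio was 2.40. The brighter Slc4a4 probes had their lowest ratios on the array of KO replicate 1.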

How the results depend on the processing

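The 10 genes kept their direction under each of the 16 alternatives run (15 for Slc26a7, which the filter on all 6 arrays removes). Slc4a2 lost its call with median centring (-0.24) and slide row as a block (-0.56). Slc4a7 lost it with Cy5 alone (0.57), the mean of probes (0.19) and slide row (0.53), which leaves 0 of the 10 higher (limma; 2, 0 and 1 at an unadjusted p under 0.05), and it ranged from 0.49 to 0.72 with single arrays left out, 0 to 1 of the 10 being higher. Slc4a4 passed with array weights (-0.51, adjusted p = 0.0434) and without KO replicate 2, and ranged from -0.89 to -0.38 with single arrays left out. The second Slc4a7 probe turned to 0.42 with Cy5 alone, 0.034 with array weights and 0.084 with median centring, and ranged from -0.51 to 0.11 with single arrays left out. In the related lists 1 gene was higher, against 2 with the Agilent ratios, 2 with the series matrix, 2 with median centring, 2 with a replicate block, 3 with Cy5 alone, 0 with slide row and 0 with the filter on all 6 arrays (limma; 1 and 0 at an unadjusted p under 0.05), and 0 to 1 with single arrays left out. Of all genes, 5213 passed, against 2219 with slide row (737 higher, 1482 lower) and 3243 (without WT replicate 3) to 5709 with single arrays left out (1272 to 2373 higher). With median centring 1036 were lower, and 74.4% of the calls were higher, against 43.5%. The cause of these changes was not tested.

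Same-numbered arrays deviated together with correlations of 0.13, 0.08 and 0.20 across genes, and each KO array correlated best with the WT array of its own number, a hint from the data and not the design, so the numbers were not taken as pairs. The replicate block gave 5131 genes and changed no call among the 10 genes (Slc4a1 -2.60, Slc4a7 0.63).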
